A study of Homo sapiens with 4 samples.

Results

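FLI1, ERG and ETS2 are 3 genes of the ETS family of transcription factors, and their RNA levels were compared in neuroblastoma cells with and without depletion of the histone chaperone subunit SSRP1. The members were taken by gene symbol, 3 of the 14812 genes that the platform annotation names on the array, with 1 probe set per symbol. They were chosen with their values in this comparison known, so their differences are given below as a description and carry no test. The cells were BE(2)C, an established human neuroblastoma line that was itself derived as a clone. The control group was transfected with non-targeting control siRNA and the other group with siRNA against SSRP1, a subunit of FACT, the complex that takes nucleosomes apart and rebuilds them during transcription and replication. Both groups were grown in DMEM with 10% FCS and transfected with Lipofectamine 2000, and total RNA was taken after 72 hours. Each group held 2 samples on 1 array each, and the labels do not say whether these came from separate cultures, so the spread between them may be technical. The labels list a single catalogue item against SSRP1, so effects of that siRNA on other transcripts and effects of less SSRP1 cannot be told apart.

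ETS factors share a winged helix-turn-helix domain that binds DNA at a GGAA core. FLI1 and ERG are close paralogues that maintain endothelial cells and blood stem cells, and FLI1 also drives megakaryocyte genes. Both are known as fusion partners of EWSR1 in Ewing sarcoma, a small round cell tumour that has to be told apart from neuroblastoma, and ERG also as the partner of TMPRSS2 in prostate cancer. ETS2 is widely expressed and is phosphorylated by ERK downstream of RAS, which raises its activity on genes of proliferation and matrix breakdown. ERG and ETS2 lie side by side on chromosome 21 and FLI1 lies beside ETS1 on chromosome 11, a pair of neighbours on each chromosome.

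Promoter sequence is shown for ERG and ETS2 because the core that the family itself binds can be read in it. The RefSeq promoter table (GRCh38.p14) held 6 start sites for 2 of the 3 members, 4 for ERG and 2 for ETS2. It has no entry for FLI1. The 250 bases before a start are printed 5′ to 3′ on the gene's strand, in lower case, with each GGAA or its reverse complement TTCC in capitals.
ERG, most upstream start, chr21:38660668-38660917, minus strand: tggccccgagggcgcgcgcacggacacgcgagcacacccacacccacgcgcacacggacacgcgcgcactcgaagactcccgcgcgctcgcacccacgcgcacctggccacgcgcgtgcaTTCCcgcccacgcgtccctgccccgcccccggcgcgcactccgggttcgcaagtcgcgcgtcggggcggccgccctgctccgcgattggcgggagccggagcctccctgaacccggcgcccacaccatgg
ERG, next start, chr21:38584946-38585195, minus strand: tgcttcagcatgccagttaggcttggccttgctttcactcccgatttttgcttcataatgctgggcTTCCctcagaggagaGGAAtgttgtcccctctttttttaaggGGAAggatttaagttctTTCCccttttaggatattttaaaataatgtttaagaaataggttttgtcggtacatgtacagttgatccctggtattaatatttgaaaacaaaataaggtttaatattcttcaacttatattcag
ETS2, first start, chr21:38804933-38805182, plus strand: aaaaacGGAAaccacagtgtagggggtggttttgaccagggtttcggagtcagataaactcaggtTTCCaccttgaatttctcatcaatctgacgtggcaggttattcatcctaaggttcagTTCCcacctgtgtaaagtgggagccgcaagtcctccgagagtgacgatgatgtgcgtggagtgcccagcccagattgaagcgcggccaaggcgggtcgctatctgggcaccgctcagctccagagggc
ETS2, second start, chr21:38805679-38805928, plus strand: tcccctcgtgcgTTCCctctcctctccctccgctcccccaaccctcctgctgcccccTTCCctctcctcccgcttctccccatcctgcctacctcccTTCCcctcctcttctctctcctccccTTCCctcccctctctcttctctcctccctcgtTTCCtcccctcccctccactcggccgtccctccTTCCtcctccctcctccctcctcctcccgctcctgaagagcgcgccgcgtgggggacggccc

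The windows differed in how often they held the core. The window at the second ETS2 start held 6 matches, all TTCC on the printed strand in a run rich in C and T, and 9.14% of the 35116 promoters in the table held at least 6. The first ETS2 window held 3. The 4 ERG windows held 1, 4, 1 and 2 matches, and 34.3% of promoters held at least 4. The last 2 of these windows, not printed, overlap for most of their length, and 1 match is counted in both. A median promoter held 3, and 92.7% held at least 1, so the core alone is common. Longer forms of the core were searched on both strands, overlaps allowed. CCGGAA was in 14.5% of promoters. The form GGAAGT was in 19.5% of promoters, and the tandem core GGAAGGAA in 3.06%. None of these longer forms was in any of the 6 windows of ERG and ETS2. The window at the most upstream ERG start was 77.2% G and C, and the window at the next ERG start 36.4%. The array has 1 named probe set for each gene, and these values do not say which start was used.

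The siRNA target was lower on both SSRP1 siRNA arrays. SSRP1 fell by 1.95 ± 0.17 (SE, n = 2 per group) on the log2 scale, with a limma adjusted p of 0.0479. That call was lost with the replicate block, robust variances, all probe sets or any 1 array left out, with limma adjusted p from 0.0512 to 0.599, while the log2 change stayed between -2.17 and -1.72. Over all probe sets the arrays correlated at 0.993 between controls, 0.991 between SSRP1 siRNA samples and 0.990 to 0.991 across groups. With 4 arrays every value below has limited precision, and an exact permutation test of 2 against 2 samples cannot give a two-sided p below 0.333. The 9 measured of 11 neuroblast markers, which define the labelled cell type, all had mean levels above the median gene, with control means from 6.69 to 10.8. In a bulk sample fewer cells of a type and less RNA per cell cannot be told apart.

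All 3 ETS factors were higher with SSRP1 siRNA, FLI1 by the largest amount. As log2 expression FLI1 read 5.22 and 4.66 with control siRNA and 6.62 and 5.95 with SSRP1 siRNA. The groups did not overlap, and the lower SSRP1 siRNA array lay 0.73 above the higher control array. The group means were 4.94 ± 0.40 (SD, n = 2) and 6.29 ± 0.48 (SD, n = 2). The log2 difference was 1.35 ± 0.28 (SE), a 2.55-fold higher level and the 20th highest difference among the 14812 genes. FLI1 had the widest spread of the 3, with the samples of each group 0.56 and 0.67 apart on the log2 scale.

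ERG, the closest relative of FLI1 beside FEV, was higher by a smaller amount. It read 5.24 and 4.83 with control siRNA and 5.80 and 5.62 with SSRP1 siRNA on the log2 scale. Both SSRP1 siRNA arrays again lay above both control arrays, with a gap of 0.38. The means were 5.03 ± 0.29 (SD, n = 2) and 5.71 ± 0.13 (SD, n = 2), a log2 difference of 0.68 ± 0.16 (SE) or 1.60-fold.

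ETS2, the ERK-responsive factor next to ERG on the chromosome, had nearly the same difference with less spread. It read 8.42 and 8.32 with control siRNA and 9.12 and 8.99 with SSRP1 siRNA on the log2 scale. The groups were 0.57 apart at their nearest arrays. The means were 8.37 ± 0.08 (SD, n = 2) and 9.06 ± 0.10 (SD, n = 2), a log2 difference of 0.69 ± 0.11 (SE) or 1.61-fold. By size of the difference ETS2 stood 137th and ERG 141st from the top among the 14812 genes.

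The groups did not overlap for 3 of 3 members, where both SSRP1 siRNA arrays lay above both control arrays for 21.8% of all genes. In the limma fit over all genes 0 of 3 members passed at an adjusted p under 0.05, a threshold that 0.0945% of all genes passed. At an unadjusted p under 0.05 there were 3 of 3, against 12.6% of all genes. Since this comparison chose the members, nothing is read from these counts. Leaving out 1 array at a time moved the log2 difference of FLI1 between 1.01 and 1.69 and that of ETS2 between 0.62 and 0.76. ERG was the member that moved most for its size, to 0.47 without control siRNA replicate 2 and to 0.88 without control siRNA replicate 1.

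**Figure D1:**
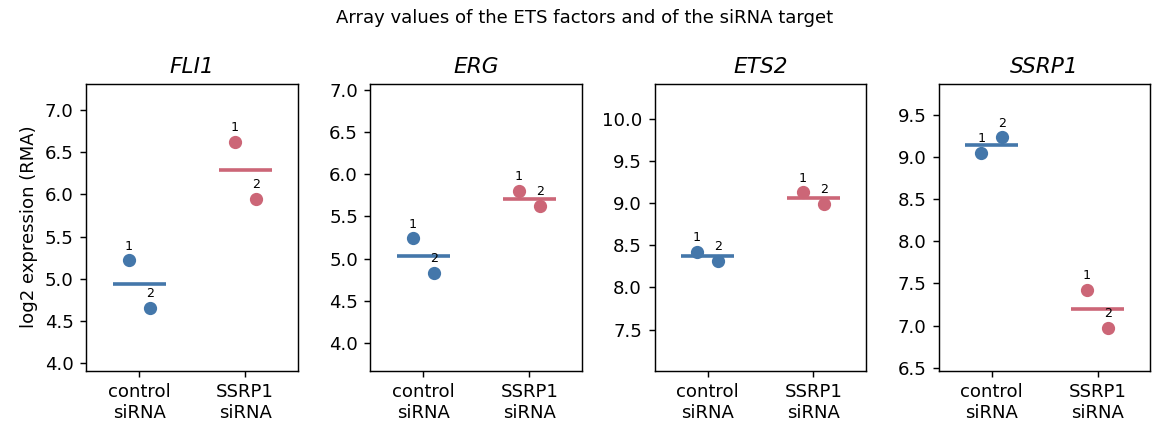
Log2 expression (RMA) of FLI1, ERG, ETS2 and the siRNA target SSRP1 on each of the 4 arrays, with the y axes covering the same span and labelled by gene. Points are samples numbered by replicate and bars are group means (n = 2). Both SSRP1 siRNA samples sit above both control samples for FLI1, ERG and ETS2, and below them for SSRP1.

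The rest of the ETS family was compared to see whether other relatives differed too. Of the other 25 family genes 20 had a named probe set, and ELK1, ELK3, ELK4, ELF3 and GABPA were not analysed here. None of the 20 passed the limma test over all genes, with a smallest adjusted p of 0.206. At an unadjusted p under 0.05 there were 2 higher and 1 lower, against 6.56% and 6.03% of all genes. The family was evenly split, with 10 genes above 0 and 10 below, where 48.3% of all genes lay above 0. The median log2 difference was 0.01, against -0.01 over all genes. With repeated quantile normalization the family median was -0.002, and ELF2, at -0.01, turned to 0.01 after median centring.

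The nearest relatives of the members had positive differences. FEV, the third gene of the ERG subfamily and a factor of serotonin neurons, read 8.45 and 8.47 with control siRNA and 8.87 and 8.98 with SSRP1 siRNA on the log2 scale. Its log2 difference was 0.46 ± 0.10 (SE, limma adjusted p = 0.206), with the groups apart. With a variance trend its adjusted p was 0.0298. ETS1, the paralogue of ETS2 and neighbour of FLI1, read 6.55 and 6.02 against 7.03 and 6.50, a log2 difference of 0.48 ± 0.24 (SE, limma adjusted p = 0.490). Its groups overlapped, since control replicate 1 lay above SSRP1 siRNA replicate 2.

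Among the repressors of the family ETV6, a factor of blood stem cells that is rearranged in leukaemia, read 7.002 and 6.85 against 7.56 and 7.28, a log2 difference of 0.49 ± 0.13 (SE, limma adjusted p = 0.271). Its relative ETV7 had a log2 difference of 0.10. ERF, ETV3 and ETV3L, repressors of another branch, lay between 0.05 and 0.15 on the same scale. None of these passed the test.

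Other branches lay mostly near or below 0. ELF4, a factor of lymphoid and natural killer cells, had the lowest value of the measured family. It read 5.25 and 5.10 with control siRNA and 4.75 and 4.43 with SSRP1 siRNA, a log2 difference of -0.59 ± 0.14 (SE, limma adjusted p = 0.223), with the groups apart. ELF1 and ELF2 of the same branch were at -0.08 and -0.01. The PEA3 genes ETV1, ETV4 and ETV5, which respond to FGF and ERK signalling, lay between -0.16 and -0.04. SPI1, the master factor of myeloid cells, was at -0.19, and SPIB and SPIC at -0.07 and 0.20. SPIC was dim, with a control mean of 1.66, and its groups stood apart. The epithelial factors ELF5, EHF and SPDEF lay between -0.07 and 0.04, and ETV2, which starts the endothelial lineage in the embryo, at 0.02.

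**Figure D2:**
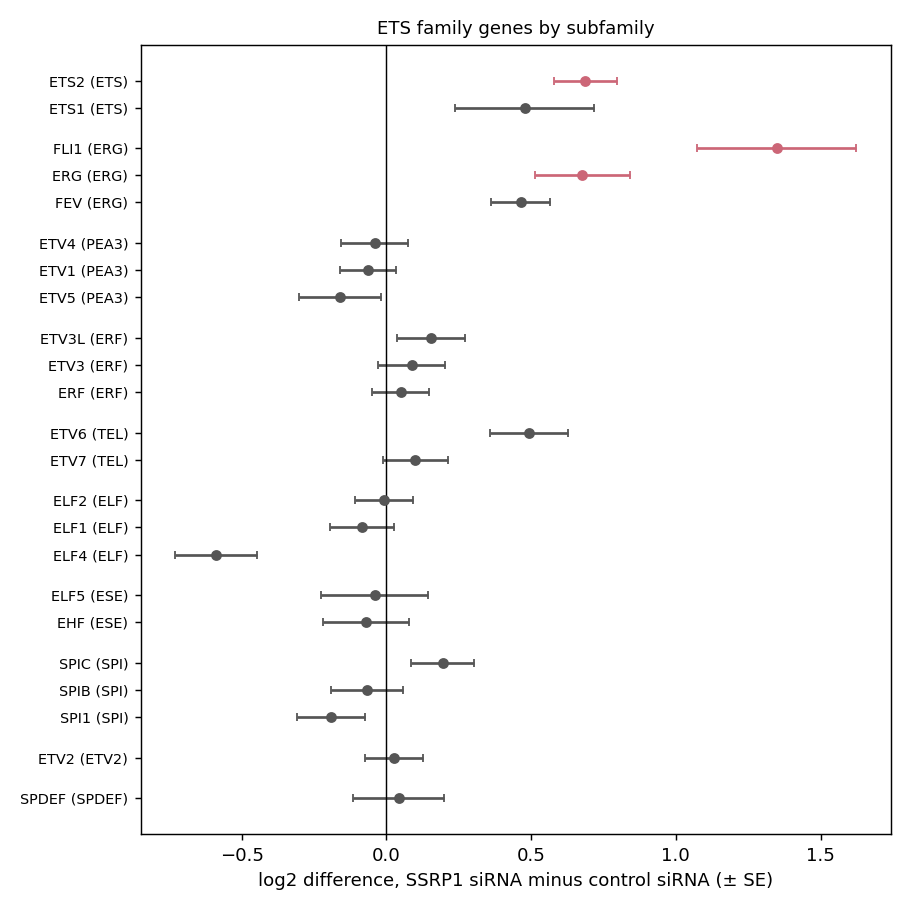
Log2 difference, SSRP1 siRNA minus control siRNA, of the 23 measured ETS family genes grouped by subfamily, with bars of 1 SE from the limma fit (n = 2 per group). FLI1, ERG and ETS2, in red, were chosen for their difference; of the other 20 genes 10 lie above 0 and 10 below, from ELF4 at -0.59 to ETV6 at 0.49.

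Genes that ERG and FLI1 are known to regulate in endothelium included 2 that rose. Of 25 such genes 20 were measured, 14 of them above 0 and 6 below, with a median log2 difference of 0.07 against -0.01 over all genes. The 12 at or below the median level of all genes had a median of 0.02. The 8 above that level had a median of 0.71, with 7 above 0 and 1 below. At an unadjusted p under 0.05 in limma there were 6 higher and 0 lower, against 6.56% and 6.03% of all genes. Groups stood apart for 7 higher and 1 lower, against 21.8% and 22.5% of all genes. The limma test over all genes called 2 as higher and 0 as lower, where it called 0.081% and 0.0135% of all genes. The list was chosen with earlier results of these data known, so nothing is read from its counts or its medians. KLF2, a zinc finger factor of quiescent endothelium, rose from log2 values of 5.89 and 5.96 to 7.54 and 7.56, by 1.62 ± 0.10 (SE, adjusted p = 0.0267). ANGPT2, an angiopoietin that destabilises vessels, rose from 6.81 and 6.81 to 8.05 and 8.24, by 1.34 ± 0.11 (SE, adjusted p = 0.0427). Neither passed in limma when any 1 of the 4 arrays was left out, with a lowest adjusted p over the list of 0.241 to 0.599, and neither passed when all probe sets were tested together. With the replicate number as a block KLF2 passed and ANGPT2 did not.

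Other genes of that endothelial list did not pass in this fit. ICAM2, an adhesion molecule of endothelium and platelets, read 8.44 and 8.17 against 9.22 and 9.03, a log2 difference of 0.82 ± 0.14 (SE, limma adjusted p = 0.138). It passed with a variance trend and among genes at or above the median level (adjusted p = 0.0206 and 0.0300). ESAM, an adhesion molecule of endothelial junctions, and HHEX, a homeobox factor of blood and vessel progenitors, had log2 differences of 1.08 ± 0.30 and 0.60 ± 0.14 (SE, limma adjusted p = 0.278 and 0.217), and both were named after their values were seen. The SSRP1 siRNA arrays of ESAM were 6.94 and 5.97, far apart from each other. The lowest value of the list was APLNR, the apelin receptor, at -0.33.

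Markers that define endothelium were nearly level, and most were dim. Of 8 endothelial markers 5 were measured, and 0 of these had a mean level over the 4 arrays above the median gene (4.64). CLDN5 lay near that median, with a control mean of 4.67 and an SSRP1 siRNA mean of 4.53. Their summed log2 levels were 15.1 and 15.6 with control siRNA and 15.5 and 15.6 with SSRP1 siRNA. TIE1, a receptor of endothelial cells, had a log2 difference of 0.22 ± 0.10 (SE, limma adjusted p = 0.458), and VWF, KDR, EMCN and CLDN5 lay between -0.14 and 0.09. PECAM1, CDH5 and TEK were not analysed here. Of 8 blood markers 3 were measured, CD14, PF4 and CD2, with summed log2 levels of 12.04 and 12.59 against 12.57 and 12.18. Of 7 fibroblast and stroma markers 3 were measured, with sums of 16.8 and 15.9 against 17.9 and 17.6, and 1 gene made up most of that difference. LUM, a matrix proteoglycan, had a log2 difference of 1.20 (limma adjusted p = 0.184), while THY1 was at 0.25 and DCN, another matrix proteoglycan, at -0.04. Of 7 Schwann and glial markers 5 were measured, with sums of 22.08 and 21.97 against 22.82 and 22.43. S100B, a calcium-binding protein of glia, was at 0.47 (limma adjusted p = 0.262), ERBB3 at 0.12, and SOX10, GFAP and MBP between -0.02 and 0.04. The part of the stroma and glial markers in the values of the ETS factors was not tested.

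Neuroblast markers lay mostly below 0 in the same samples. Of the 9 measured 8 lay below 0 and 1 above, and their summed log2 levels were 78.3 and 78.0 with control siRNA and 75.9 and 76.6 with SSRP1 siRNA. None passed the limma test, and 3 lower and 1 higher had an unadjusted p under 0.05, against 6.03% and 6.56% of all genes. DBH, the enzyme that makes noradrenaline, had the lowest log2 difference at -0.77 (limma adjusted p = 0.111), and HAND2 and TH, a factor and an enzyme of the sympathetic lineage, were at -0.38 and -0.34. CHGA, a protein of secretory granules, was the 1 above 0, at 0.34. The part of these markers in the values of FLI1, ERG and ETS2 was not tested.

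The factors that act with ERG and FLI1 in blood and endothelial progenitors were split, 4 of 7 measured above 0 and 3 below, with a median log2 difference of 0.21. LYL1, a helix-loop-helix factor of blood stem cells, read 6.75 and 6.78 against 7.33 and 7.53, a log2 difference of 0.66 ± 0.11 (SE, limma adjusted p = 0.140). LMO2, the bridging protein of the same complex, was at 0.33. TAL1, its helix-loop-helix partner, was at 0.41 ± 0.20 (SE). It was dim, at 2.87 and 2.56 with control siRNA, and its groups overlapped. GATA2, which the sympathetic lineage also expresses, was at -0.06, GATA1 at -0.10 and RUNX1, with a dim control mean of 3.07, at -0.18. None passed limma's test over all genes, and 2 had an unadjusted p under 0.05, both higher, against 6.56% of all genes. The 3 measured of 7 megakaryocyte genes that FLI1 drives, PF4, GP9 and GP6, had log2 differences of 0.11, 0.07 and -0.24. All had overlapping groups, with 0 at an unadjusted p under 0.05 in limma, against 12.6% of all genes.

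Genes linked to ETS2 were compared in the same way. Of 13 protease and growth genes that ETS1 and ETS2 are known to regulate 9 were measured, with a median log2 difference of -0.10. Of these 2 lay above 0 and 7 below, where 48.3% of all genes lay above 0. None passed the limma test (smallest adjusted p = 0.366). At an unadjusted p under 0.05 there was 1, against 12.6% of all genes. CCND1, the cyclin of the G1 phase, was highest at 0.36, and CDKN2A, an inhibitor of the same step, was lowest at -0.26. The collagenase gene MMP1 was dim and at -0.18, and TIMP1, an inhibitor of such proteases, at -0.15.

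Output genes of the RAS-ERK pathway, which acts on ETS2, included larger differences. Of 19 genes 14 were measured, 8 above 0 and 6 below, with a median log2 difference of 0.20. None passed the limma test over all genes (smallest adjusted p = 0.0893), and 5 had an unadjusted p under 0.05, all higher, against 6.56% of all genes in that direction. CCND1 is among these 5 and is also the gene at that p in the protease and growth list. FOSL1 is in both lists too, and ETV4 and ETV5 are also counted in the ETS family. EGR1, an immediate early zinc finger factor, had a log2 difference of 0.98 ± 0.12 (SE, limma adjusted p = 0.0893). EPHA2, an ephrin receptor, was at 0.72 ± 0.10 (adjusted p = 0.107) and SPRY2, a feedback inhibitor of the pathway, at 0.69 ± 0.11 (adjusted p = 0.128). These 3 passed with a variance trend. This list too was chosen with earlier results of these data known, so nothing is read from its counts or its median. DUSP4, DUSP5 and DUSP6, phosphatases that switch ERK off, were at -0.10, -0.18 and 0.14.

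Genes for proteins that bind beside ETS factors on DNA or work with them as partners differed little. Of 14 such genes 12 were measured, 6 above 0 and 6 below, with a median log2 difference of 0.01, which was -0.005 after repeated quantile normalization. None passed the limma test (smallest adjusted p = 0.387), and 1 had an unadjusted p under 0.05, against 12.6% of all genes. JUNB, an AP-1 subunit, was highest at 0.29, while FOS, JUN and JUND were at 0.14, 0.03 and -0.10. RUNX1 and RUNX3, runt domain factors with dim control means of 3.07 each, were at -0.18 and -0.13. RUNX2, with a control mean of 2.35, was at 0.05. The acetyltransferase genes EP300 and CREBBP were at 0.06 and -0.02.

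**Figure D3:**
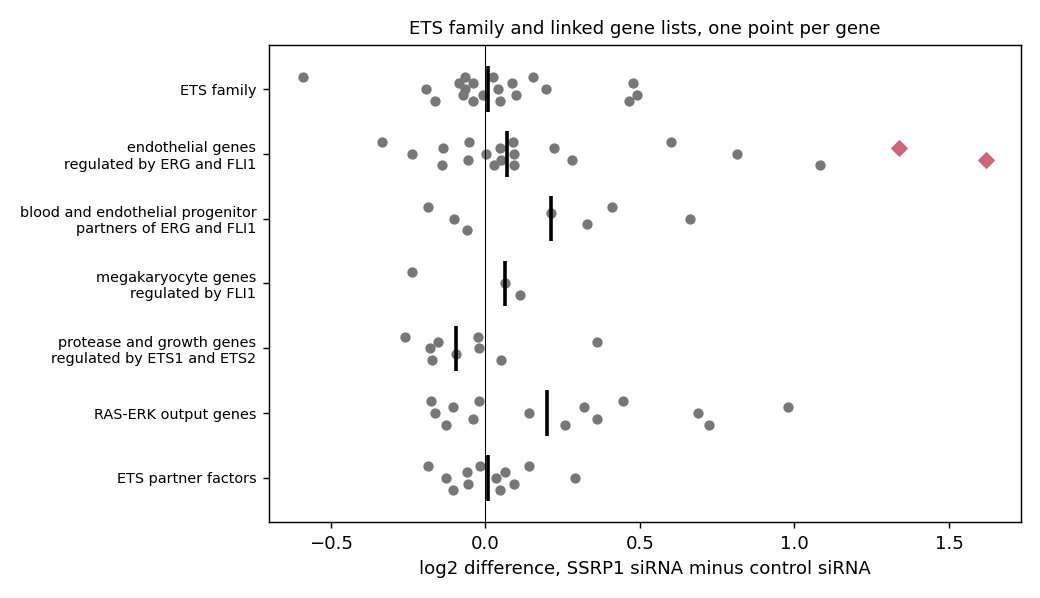
Log2 difference, SSRP1 siRNA minus control siRNA, of each measured gene in 7 lists linked to the ETS factors, with FLI1, ERG and ETS2 left out. Grey points did not pass the limma test over all genes, red diamonds (ANGPT2 and KLF2) did, and black bars are list medians, from -0.10 to 0.21. A gene that is in several lists, such as CCND1 or RUNX1, is drawn in each.

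The genes beside each member were examined because FLI1 adjoins ETS1, and ERG adjoins ETS2, with no other protein-coding gene between them in the RefSeq order. Of the 20 nearest measured neighbours that are not members, 0 passed the limma test (smallest adjusted p = 0.103) and 2 had an unadjusted p under 0.05, 1 higher and 1 lower, against 12.6% of all genes. The median log2 difference was 0.08, with 12 above 0 and 8 below. Both SSRP1 siRNA arrays lay above both control arrays for 6 of the 20, against 21.8% of all genes.

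At the FLI1 locus the adjoining ETS1 and the overlapping SENCR had positive values. SENCR, a long noncoding RNA whose gene overlaps FLI1, read 4.23 and 3.90 against 4.67 and 4.30, a log2 difference of 0.42 ± 0.18 (SE, limma adjusted p = 0.409), with the groups apart by a narrow gap. ETS1, given above, was at 0.48. Beyond ETS1, KIRREL3-AS3 was at 0.09. TP53AIP1, a p53 target of mitochondria, was at -0.21 with the groups apart. It is the nearest measured gene on its side that does not overlap FLI1. TMEM45B, a membrane protein gene 5 measured genes away, read 4.92 and 4.67 against 5.68 and 5.78, a log2 difference of 0.94 ± 0.12 (SE, limma adjusted p = 0.103). KIRREL3, an adhesion molecule of neurons at the same number of steps on the other side, read 3.81 and 3.86 against 3.37 and 3.49, a log2 difference of -0.40 ± 0.10 (SE, limma adjusted p = 0.246). Both were named after their values were seen, and their groups stood apart in opposite directions.

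On chromosome 21 the measured genes around ERG and ETS2 had smaller values than the pair. DSCR10 and DSCR8, noncoding genes on the ERG side, were at 0.12 and 0.30 on the log2 scale. BRWD1, a bromodomain gene on the ETS2 side, was at 0.08 and its antisense gene BRWD1-AS1 at 0.02. The 10 measured neighbours of the pair lay between -0.24 and 0.30, against 0.68 for ERG and 0.69 for ETS2. Whether the pair differed from its neighbours was not tested, since the pair was chosen for its difference.

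**Figure D4:**
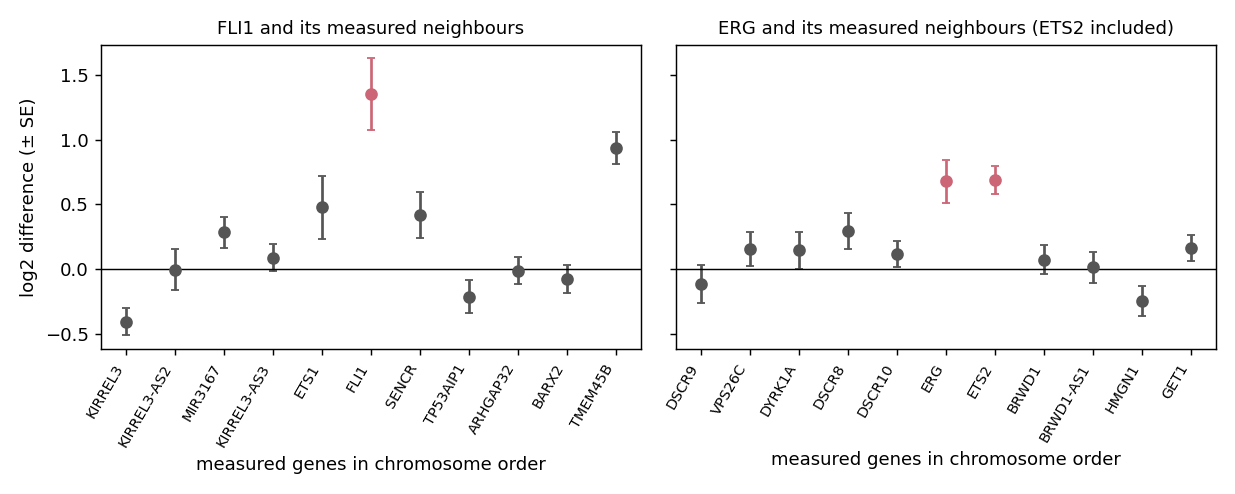
Log2 difference (± 1 SE, n = 2 per group) of FLI1 and of ERG, each with the 5 nearest measured genes on either side in RefSeq gene order, so the x axis shows order and not distance. FLI1 stands at 1.35 with ETS1 (0.48) beside it and SENCR (0.42), whose gene overlaps it. ERG and ETS2 stand at 0.68 and 0.69 with neighbours between -0.24 and 0.30.

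Genes whose 4 array values most resembled those of each member were found by the Euclidean distance between log2 values centred on each gene's own mean, among genes above the median level. This is a description over 4 arrays. For FLI1 they were the growth factor PDGFD at a distance of 0.348, the metalloproteinase inhibitor TIMP3 at 0.351 and TFPI, the tissue factor pathway inhibitor, at 0.224. TFPI read 4.27 and 3.88 against 5.73 and 4.86. Its control mean of 4.07 lay below the median level, so it entered the search only through its SSRP1 siRNA values. For ERG they were TPBGL, the flagellin receptor TLR5 and the calsyntenin CLSTN2, at 0.0686, 0.0952 and 0.1005. For ETS2 they were SEZ6, a membrane protein of neurons, the cilium GTPase ARL6 and KIAA1614, at 0.0605, 0.0714 and 0.0765. The 9 genes had log2 differences from 0.61 (CLSTN2) to 1.22 (TIMP3), and all of their groups stood apart, which the choice by likeness to the members favours.

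**Figure D5:**
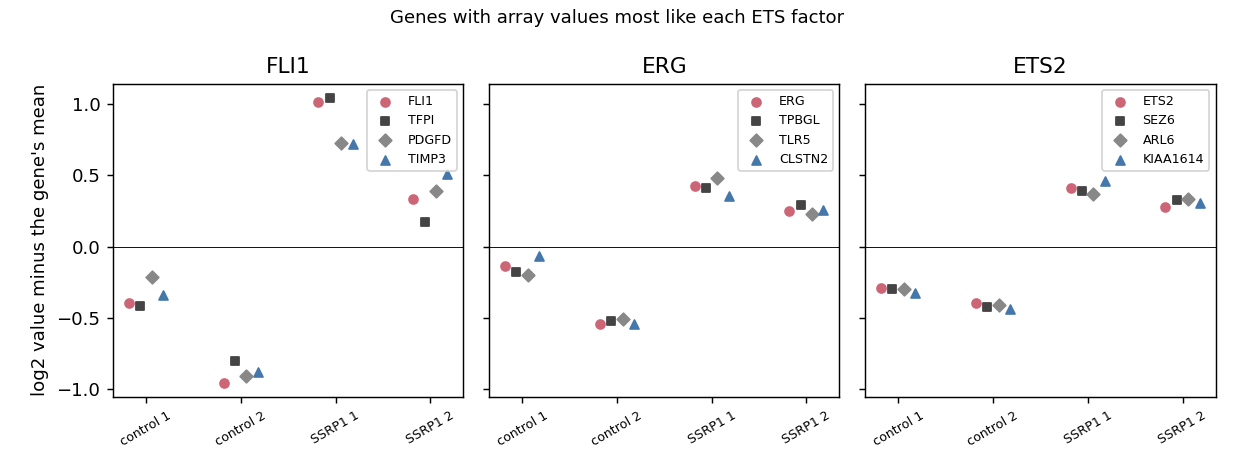
Log2 values minus the gene's mean over the 4 arrays for FLI1, ERG and ETS2 (red circles) and the 3 genes closest to each, by sample. The genes shown for FLI1 include TFPI, which passed the level filter only through its SSRP1 siRNA values, and the genes closest to ERG and ETS2 lay at distances up to 0.1005 and 0.0765 from them.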

How the data were processed

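The deposited table holds 1 log2 expression value per probe set and array, made by the authors with RMA, per the submitters' processing notes. The sources used here do not give its software, version or annotation build. The log2 scale was read from the values, and a shift of all transcripts together would not be seen after such normalization. The annotation named 1 gene for 15835 of the 46255 probe sets and several genes for 0, and the 30420 unnamed ones were left out. Where a gene had more than 1 probe set (651 genes), the brightest by mean stood for it; each member had 1.

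SSRP1 siRNA was compared with control siRNA in limma 3.58.1 (R 4.3.3, lmFit and eBayes, no trend) over 14812 genes, with Benjamini-Hochberg adjustment, 2 residual and 3.79 prior degrees of freedom. On data simulated from the fit's own variance prior, it called 2.7% of log2 changes of 0.5, 69.4% of 1 and 93.7% of 1.5. A gene that did not pass may therefore still differ. The simulated errors were normal and independent, so this does not check the fit on the real spread of these arrays. The members and gene lists were chosen with earlier results of these data known. Named were all ETS family genes and, per list, genes past the test, filled up to 3 by smallest p, with markers and the nearest 2 neighbours a side; further examples were picked after their values were seen. Alternatives covered normalization, variance model, block, filters and arrays left out.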

Additional observations from a re-analysis of the deposited data

How the results depend on the processing

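The log2 differences of FLI1, ERG and ETS2 moved most when an array was left out (FLI1 1.01 to 1.69, ERG 0.47 to 0.88, ETS2 0.62 to 0.76). With the replicate number as a block these differences were the same by construction. Their SE went from 0.28 to 0.10 for FLI1, 0.16 to 0.11 for ERG and 0.11 to 0.10 for ETS2. With that block SSRP1 was at -1.95 (limma adjusted p = 0.0569), 6 genes in all passed and 1 of the endothelial list. Samples share only a number: the correlation over genes of replicate 1 minus replicate 2 between the groups was 0.114. SSRP1 also missed the threshold with robust variances and over all probe sets (-1.95 in both, limma adjusted p = 0.0512 and 0.144), and with 1 array left out (-2.17 to -1.72, limma adjusted p 0.241 to 0.599). The 14 genes past the test became 215 with a variance trend, 9 with robust variances, 28 after quantile normalization, 23 after median centring, 179 at or above the median level, 0 over all probe sets, 41 at an adjusted p under 0.1 and 0 without any 1 array. With a variance trend 1 ETS family gene (FEV), 1 progenitor partner (LYL1), 3 RAS-ERK genes and 1 neighbour (TMEM45B) passed, where 0 did in the main setting. At or above the median level these were LYL1 (1), the 3 RAS-ERK genes and TMEM45B (1), and at an adjusted p under 0.1 the RAS-ERK list had 1. The endothelial list had 3, with ICAM2 added, under a variance trend and at or above the median level, and 0 over all probe sets and 0 without any 1 array. The cause of these changes was not tested. Some settings also differed in the number of samples or of features tested.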
